A study of Mus musculus with 2 samples.

Results

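Edge spots were compared with interior spots in 2 mouse heart sections profiled by spatial transcriptomics. A spot over tissue was called interior when all 6 of its neighbours on the hexagonal array also lay over tissue, and every other spot over tissue was called an edge spot, so that the choice used positions and no expression value. There were 541 edge spots among 2180 spots over tissue. The control section held 230 edge spots of 1256, and the TOP2B transgenic section held 311 of 924. An edge spot was assigned to the outer edge when it touched the area around the section (139 control and 133 transgenic spots) and to the inner edge when it touched only areas enclosed by tissue (91 and 178 spots).

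The study asked what cardiomyocyte expression of topoisomerase IIβ (TOP2B) does to the heart. The control section came from 1 α-MHC-MerCreMer+/− mouse and the transgenic section from 1 α-MHC-MerCreMer+/−TOP2B LSL/− mouse. Both mice carried the tamoxifen-dependent Cre recombinase MerCreMer, which the α-MHC promoter drives in cardiomyocytes, and both were given a single intraperitoneal dose of tamoxifen at 80 mg/kg. The transgenic mouse also carried a human TOP2B cDNA at Rosa26 under the CAG promoter, behind a STOP cassette that Cre removes. The methods give an age of 6 weeks for mice on this regimen, and the time from tamoxifen to harvest of these sections is not given in the sources used here. The hearts were formalin fixed and paraffin embedded, cut at 5 μm and hybridised with mouse probes in the Visium CytAssist workflow. With 1 section per genotype no test between genotypes could be made, and spots of 1 section are not replicates.

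The heart wall has surfaces on both sides. Its outside is covered by the epicardium, a mesothelial layer over a sheet of connective tissue that holds fibroblasts, coronary vessels, lymphatics and nerves. Its cavities are lined by the endocardium, an endothelium that faces the blood, and the fast-conducting Purkinje fibres run just under it. Cardiac muscle fills the wall between them.

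Each spot covers several cells, often of more than 1 type, and a difference between regions cannot tell fewer cells of a type from less RNA per cell. The control section held 14376300 unique molecular identifiers (UMIs), of which 2015064 lay in edge spots, and the transgenic section held 12953389, of which 3640976 lay in edge spots. Edge spots were shallower than interior spots, with median UMIs of 8834.5 against 11652.5 in the control section and 11788 against 15251 in the transgenic section. Edge spots with no tissue neighbour numbered 4 in the control and 2 in the transgenic section, 3 and 2 of them under 100 UMIs, and leaving out all 6 changed the counts of called genes by at most 1. Myh6, the adult cardiac myosin heavy chain, had a UMI in 228 of 230 control and 306 of 311 transgenic edge spots, so heart muscle RNA was read in nearly all of them. Because Myh6 was abundant, 1 UMI cannot tell a spot filled by muscle from one mostly of blood or other tissue.

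**Figure D1:**
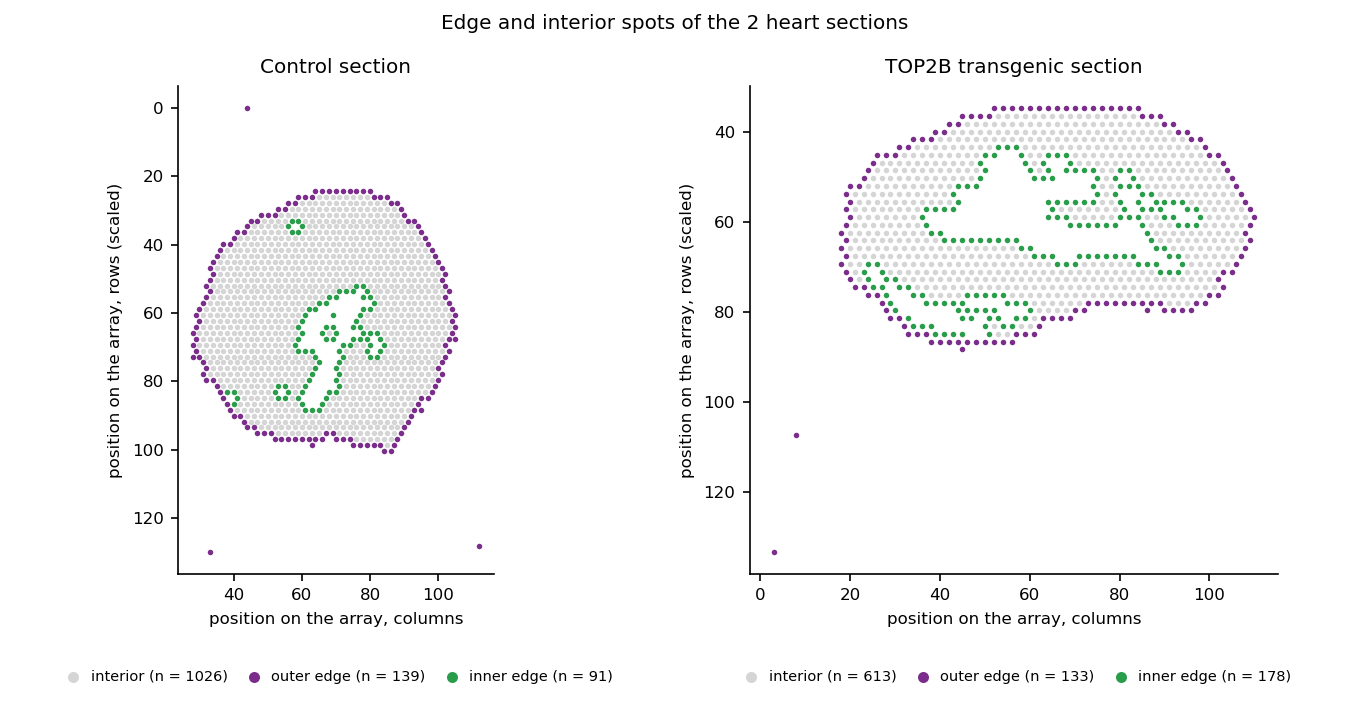
Map of the spots over tissue in both sections, with array column on the horizontal axis and scaled array row on the vertical axis, coloured by outer edge, inner edge and interior. The control section shows 139 outer and 91 inner edge spots around 1026 interior spots, and the transgenic section 133 outer and 178 inner edge spots around 613 interior spots.

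The plot of spot positions shows where the sections differed in shape. The control section enclosed 5 areas, the largest of 78 array positions, and the transgenic section enclosed 8, the largest of 154. A control spot could lie up to 8 steps from the nearest edge and a transgenic spot up to 4. Edge spots were 18.3% of the control and 33.7% of the transgenic spots over tissue.

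Levels are CPM, the UMIs of a gene in the summed spots scaled to a common library total, and ratios are log2 of edge CPM over interior CPM with an exact conditional binomial 95% interval, which covers counting error only. A gene was tested when it had at least 200 UMIs in a section, and it was called when its edge level was at least 1.5-fold higher or lower and lay on that side in each of 4 quadrants of the section. Of 7211 genes tested in the control section 67 were called higher at the edge (0.929%) and 22 lower (0.305%). Of 7581 genes tested in the transgenic section 37 were called higher (0.488%) and 17 lower (0.224%). Most control calls came from genes under 500 UMIs, and among genes with at least 500 UMIs 18 were called higher and 2 lower in the control section, and 18 higher and 1 lower in the transgenic section. The direction of the control split depended on the scaling. With edgeR's TMM factors, which shifted all control ratios by −0.10, 36 genes were called higher and 64 lower, and with DESeq2's size factors, which shifted them by −0.11, 35 and 68. TMM factors taken over the tested genes alone shifted them by −0.02 and gave 59 higher and 29 lower.

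Mesothelial genes of the epicardium were concentrated in edge spots of both sections, and within them at the outer edge. The list of 20 epicardial genes summed to 130 CPM at the control edge against 50.3 CPM in the interior (log2 ratio 1.36, interval 1.15 to 1.57), and to 205 against 115 CPM in the transgenic section (0.83, interval 0.69 to 0.96). Quadrants of the list were uneven, from 0.31 to 2.23 in the control and from 0.41 to 1.36 in the transgenic section. At the outer edge the control sum was 178 CPM and the transgenic sum 306 CPM, against 59.5 and 121 CPM at the inner edge. Of the members with at least 20 UMIs, 12 of 13 lay above 0 in the control section and 13 of 15 in the transgenic section. Only Tcf21, a transcription factor of epicardial cells and fibroblasts, reached 200 UMIs, and it was not called.

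Msln, which encodes the mesothelial surface protein mesothelin, had the highest ratio of the list in both sections. It gave 39 UMIs at the control edge against 20 in the interior, at 19.4 against 1.62 CPM (log2 ratio 3.58, interval 2.77 to 4.44). All 39 edge UMIs lay at the outer edge. Inner edge spots held 0, which allows up to 3.65 CPM. The transgenic edge held 152 Msln UMIs against 25 in the interior, at 41.7 against 2.68 CPM (3.96, interval 3.34 to 4.63), and 144 of the 152 lay at the outer edge. Quadrant ratios of Msln ran from 3.61 to 5.39 in the transgenic section, while 1 control quadrant had no Msln UMI at the edge. Control edge levels by quadrant were 57.8, 44.9, 0 and 3.18 CPM, so Msln lay mostly in the first and second quadrants there.

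Several other mesothelial genes were sparse but lay at the outer edge too. Upk3b, an uroplakin of mesothelium, had 14 UMIs at the control edge and 17 at the transgenic edge, of which 14 and 16 lay at the outer edge. Upk1b, another uroplakin, had 13 of 14 and 28 of 30 edge UMIs at the outer edge. Lrrn4, a leucine-rich repeat protein of mesothelium, had 13 of 14 and 18 of 19 there. Wt1, the transcription factor of the developing epicardium, was at 5.96 against 2.51 CPM (interval of the log2 ratio 0.15 to 2.25) in the control section and had −0.16 (interval −1.12 to 0.71) in the transgenic section. Krt19, a simple-epithelium keratin, had 2.20 (interval 0.99 to 3.37) and 0.05 (interval −0.61 to 0.68). Those last intervals rest on 12 to 30 edge UMIs per gene.

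C3, the central component of complement, was called higher at the edge in both sections and had the highest control ratio among genes with at least 500 UMIs. It was at 141 CPM at the control edge against 40.4 CPM in the interior (log2 ratio 1.81, interval 1.59 to 2.02), with quadrants of 2.83, 1.96, 1.93 and 0.89. The transgenic levels were 152 against 78.9 CPM (0.94, interval 0.78 to 1.10), with quadrants of 2.45, 0.05, 1.99 and 0.50, so that 1 quadrant carried almost no difference. The outer edge held most of it. Outer edge spots were at 196 CPM and inner edge spots at 62.0 CPM in the control section, and at 261 and 60.7 CPM in the transgenic section.

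Rarres2 and Fmo2 had the outer layout too. Rarres2, which encodes the secreted protein chemerin, was at 114 CPM at the control edge against 64.5 CPM in the interior (log2 ratio 0.82, interval 0.60 to 1.03) and at 160 against 106 CPM in the transgenic section (0.59, interval 0.44 to 0.74). It was uneven over the control quadrants, at 190 against 77.0, 174 against 61.7, 76.6 against 52.8 and 74.7 against 66.3 CPM. It was 1.09 higher at the outer than at the inner edge in the control section and 1.00 higher in the transgenic section on the log2 scale. Fmo2, a flavin-containing monooxygenase, was at 49.1 against 20.5 CPM (1.26, interval 0.91 to 1.60) and at 166 against 107 CPM (0.64, interval 0.49 to 0.79). Outer edge spots held 69.6 CPM of Fmo2 against 19.4 CPM at the inner edge in the control section, and 229 against 114 CPM in the transgenic section.

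Genes of the endocardium were also concentrated in edge spots, with the larger share at the inner edge. The endocardial list of 8 genes summed to 188 CPM at the control edge against 85.3 CPM in the interior (log2 ratio 1.14, interval 0.96 to 1.31) and to 372 against 232 CPM in the transgenic section (0.68, interval 0.58 to 0.78). Its inner edge level was 244 CPM against 148 CPM at the outer edge in the control section, and 431 against 301 CPM in the transgenic section. The control inner edge was at 287 CPM around the largest enclosed area and at 159 CPM around the others. The transgenic order was the reverse, at 383 and 478 CPM. In both sections 3 members were called higher, Plvap, Npr3 and Vwf, of the 4 that could be tested. Of the members with at least 20 UMIs, all 7 lay above 0 in the control section and 5 of 7 in the transgenic section. Nfatc1 was the lowest control member, at 0.09. It lay below 0 in the transgenic section, as did Cytl1, the lowest there at −0.19. The transgenic call of Vwf ended with TMM (0.57) and DESeq2 factors (0.57). Control Plvap, with 222 UMIs in the section, fell under the 200 UMI minimum in some settings that left spots out. Among them was that without the spots richest in erythroid UMIs, where its ratio was 1.41. Its call stood with spots of at least 1000 UMIs and without spots that have no tissue neighbour.

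Plvap encodes a protein of the diaphragms that span openings in endothelial cells. It was at 38.2 CPM at the control edge against 11.7 CPM in the interior (log2 ratio 1.70, interval 1.29 to 2.11) and at 86.0 against 42.1 CPM in the transgenic section (1.03, quadrants 0.36 to 1.95). The inner edge held 60.8 CPM against 22.6 CPM at the outer edge in the control section, and 125 against 38.8 CPM in the transgenic section. Npr3, the natriuretic peptide clearance receptor and a defining gene of the endocardium, was at 48.6 against 16.7 CPM (1.54, interval 1.18 to 1.89) and at 84.3 against 46.9 CPM (0.85, interval 0.63 to 1.06). All 4 transgenic quadrants of Npr3 lay between 0.69 and 0.96, the tightest range among the 3 endocardial calls there. Vwf, which encodes the clotting protein von Willebrand factor, was at 37.2 against 15.6 CPM (interval of the log2 ratio 0.85 to 1.65) and at 137 against 91.3 CPM (0.59, interval 0.42 to 0.75). Vwf differed little between the outer and the inner edge, by 0.21 in the control and 0.14 in the transgenic section. Cytl1, a secreted cytokine-like protein, had 37 of its 43 control edge UMIs at the inner edge (edge over interior 1.43, interval 0.88 to 1.96), and in the transgenic section it had 12 edge UMIs and a ratio of −0.19 (interval −1.27 to 0.79).

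General endothelial genes, summed as a list, did not share this layout. The coronary and capillary endothelial list summed to 3126 CPM at the control edge against 3002 CPM in the interior (log2 ratio 0.06, interval 0.02 to 0.10) and to 2930 against 2927 CPM in the transgenic section (0.00, interval −0.03 to 0.03). The control value turned to −0.04 and the transgenic value to −0.01 with TMM factors. Of the 15 tested members 7 lay above 0 in the control and 6 in the transgenic section. The highest were Aqp1 in the control section (0.40, quadrants 0.16 to 0.76) and Eng in the transgenic section (0.38, quadrants 0.13 to 0.95). None was called, but only 0.929% of control and 0.488% of transgenic genes tested were called higher, so that count is not read as a result.

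Conduction system genes were high at the inner edge of the control section, mainly around its largest enclosed area. Inner edge spots there were at 225 CPM of the list, against 61.6 CPM around the other enclosed areas. The list summed to 170 CPM at the control inner edge, 45.3 CPM at the outer edge and 48.2 CPM in the interior, which gave 1.00 (interval 0.76 to 1.23) for edge over interior. Cntn2, a cell adhesion protein of Purkinje fibres, had 24 of its 25 control edge UMIs at the inner edge, against 23 UMIs in the whole interior. Pcp4, a calmodulin regulator of Purkinje cells and fibres, had 33 of its 37 control edge UMIs there, against 12 in the interior (4.24, interval 3.27 to 5.32), with every quadrant between 3.92 and 4.84. The 10 richest edge spots held 81.1% of the Pcp4 and 76.0% of the Cntn2 edge UMIs. In transgenic edge spots the list was at 147 CPM against 138 CPM in the interior (0.09, interval −0.06 to 0.23), Cntn2 had 19 of 21 edge UMIs at the inner edge, and Pcp4 had 4 UMIs in the whole section.

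Erythroid genes had the highest edge ratio of the gene lists in both sections. The erythroid list summed to 5461 CPM at the control edge against 1677 CPM in the interior (log2 ratio 1.70, quadrants 1.28 to 1.88) and to 33232 against 15711 CPM in the transgenic section (1.08, quadrants 0.21 to 1.57). All 5 control and all 8 transgenic members with at least 20 UMIs lay above 0, and 5 and 7 of them were called. Ahsp and Hba-a1 of the 11 list genes were not among the genes of the files, and Hemgn had 0 UMIs at the control edge and 2 at the transgenic edge. Hba-a2, an α-globin gene, was at 4199 against 1242 CPM in the control section and at 25394 against 11646 CPM in the transgenic section.

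The erythroid excess of the edge lay largely in few spots beside enclosed areas. The median edge spot gave 0.199% of its UMIs to the list against 0.126% for the median interior spot in the control section, and 0.757% against 0.563% in the transgenic section. Spots over 5% numbered 8 at the control edge, all at the inner edge, and 36 at the transgenic edge, 33 of them at the inner edge. The interior held 1 such spot in the control and 28 in the transgenic section. At the transgenic outer edge the list was at 8340 CPM, below the 15711 CPM of the interior. The control outer edge was at 2857 CPM, above the 1677 CPM of its interior. The 10 richest edge spots held 45.8% of the control and 40.6% of the transgenic Hba-a2 edge UMIs. Inner edge spots on the largest enclosed area were at 12336 CPM in the control section and 75025 CPM in the transgenic section, against 3083 and 32811 CPM around the other enclosed areas. Without the 10% of spots richest in erythroid UMIs, Hba-a2 had a log2 ratio of 0.12 in the control and 0.24 in the transgenic section. Those spots were picked by UMIs of the list that holds Hba-a2, so its fall was set in advance. In the spots kept, C3 had 1.91 and 0.99, Plvap 1.41 and 0.95 and Npr3 1.34 and 0.86. Restricting the transgenic edge to spots with at least the 10th percentile of interior UMIs turned the erythroid list to −0.77. The part of blood in the other edge differences was not tested.

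**Figure D2:**
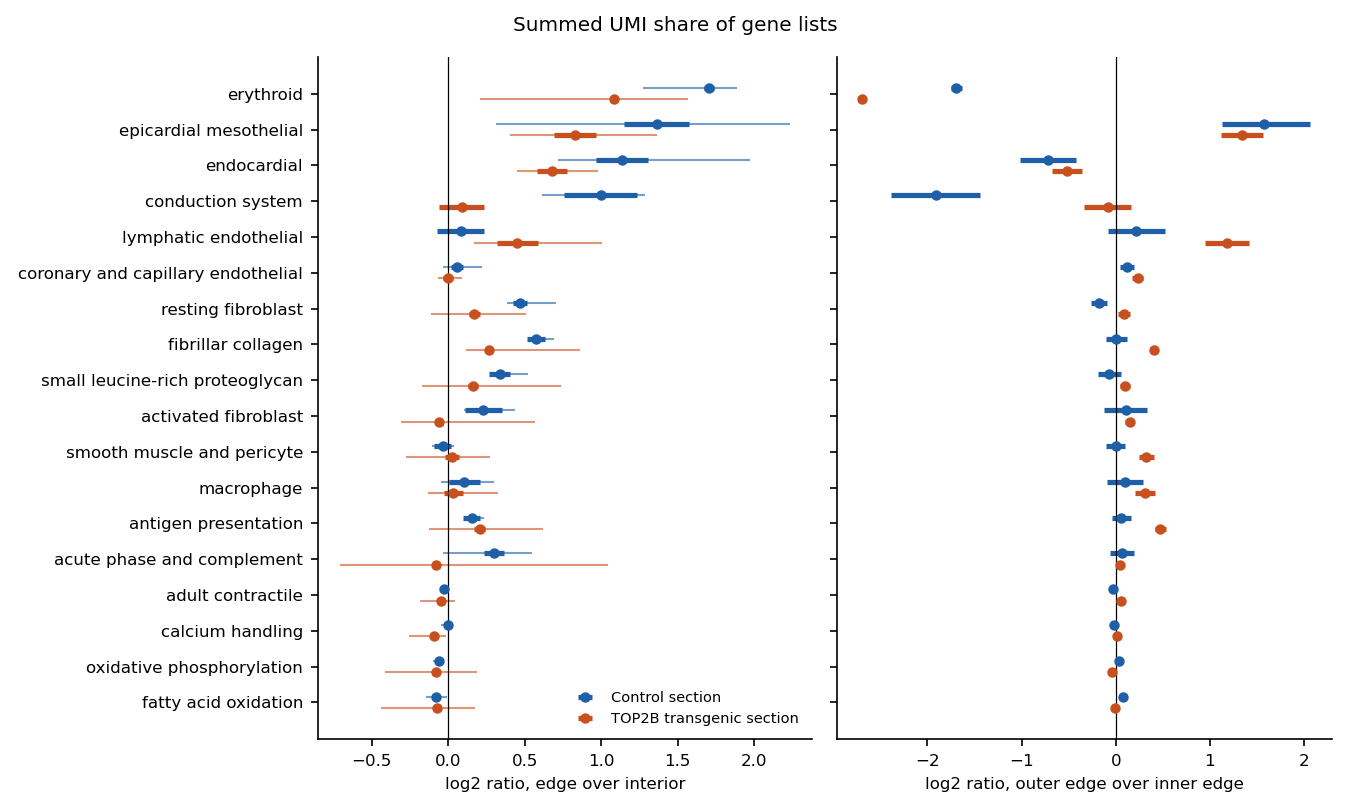
Summed UMI share of gene lists as log2 ratios, edge over interior and outer over inner edge, in both sections, with points at the ratio and bars for the 95% counting interval. The erythroid (1.70 control, 1.08 transgenic), epicardial (1.36 and 0.83) and endocardial (1.14 and 0.68) lists lie to the right in both sections, and the contractile list lies near 0 (−0.03 and −0.05).

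Lists of resting fibroblasts, fibrillar collagens and small leucine-rich proteoglycans had edge ratios with intervals above 0 in both sections. The adventitial fibroblast and basement membrane lists did not. The proteoglycan list was at 0.34 (interval 0.27 to 0.41) in control edge spots. In transgenic edge spots it was at 0.16 (interval 0.13 to 0.19), with quadrants from −0.17 to 0.73. The adventitial fibroblast list was at −0.04 (interval −0.18 to 0.11) in control and −0.07 (interval −0.13 to −0.01) in transgenic edge spots, and the basement membrane list at 0.02 and 0.01 with intervals that include 0. The resting fibroblast list summed to 2159 CPM against 1561 CPM in the control section (log2 ratio 0.47, interval 0.42 to 0.52) and to 2592 against 2302 CPM in the transgenic section (0.17, interval 0.14 to 0.21), with 11 of 12 and 10 of 12 members above 0. The called members were Pdgfra, Gsn and Serpinf1 in the control section and Dpep1 in the transgenic section, of which Gsn and Serpinf1 were named after their values were seen. TMM and DESeq2 factors ended the calls of Pdgfra, Gsn and Serpinf1, and DESeq2 factors that of Dpep1. Pdgfra, the platelet-derived growth factor receptor that marks fibroblasts, was at 29.8 against 15.1 CPM in the control section (0.98, interval 0.53 to 1.40) and at 45.6 against 35.8 CPM in the transgenic section (0.35, interval 0.07 to 0.62). The quadrants of the transgenic list ran from −0.11 to 0.51.

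Fibrillar collagens followed the fibroblast list. They summed to 1420 CPM at the control edge against 954 CPM in the interior (log2 ratio 0.57, interval 0.51 to 0.63, quadrants 0.53 to 0.69) and to 5978 against 4965 CPM in the transgenic section (0.27, interval 0.24 to 0.29, quadrants 0.12 to 0.86). Col3a1, the chain of type III collagen, was called in the control section at 673 against 399 CPM and had 0.34 (interval 0.30 to 0.38) in the transgenic section. The transgenic outer edge held 2558 CPM of Col3a1 against 1668 CPM at the inner edge. Genes of activated fibroblasts had 0.23 (interval 0.11 to 0.35) in the control section and −0.06 (interval −0.09 to −0.03) in the transgenic section, where the quadrants ran from −0.31 to 0.56.

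Several secreted proteins were called at the control edge and had a transgenic ratio near 0. Igfbp5, an insulin-like growth factor binding protein, was at 251 CPM at the control edge against 105 CPM in the interior (log2 ratio 1.26, quadrants 0.69 to 1.85), and at 275 against 269 CPM in the transgenic section (0.03, quadrants −0.23 to 0.36). Igfbp3, of the same family, was at 90.8 against 44.8 CPM (1.02, quadrants 0.40 to 1.33) and at 139 against 154 CPM (−0.15, quadrants −0.49 to 0.26). Mgp, matrix Gla protein, was at 654 against 410 CPM (0.68) and at 1906 against 1861 CPM (0.03, quadrants −0.38 to 0.96). All 3 were called in the control section and none in the transgenic section. The call of Mgp ended with TMM (0.57) and DESeq2 factors (0.57), and that of Igfbp3 (0.58) without the spots richest in erythroid UMIs.

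Heart muscle genes were close to even between edge and interior. The adult contractile list summed to −0.03 (interval −0.03 to −0.02) in the control section and −0.05 (interval −0.05 to −0.04) in the transgenic section. None of its 19 tested members was called in either. Of all genes tested 0.929% were called higher and 0.305% lower in the control section, and 0.488% and 0.224% in the transgenic section. Myl2, the ventricular regulatory light chain, had −0.04 and −0.07, Tnni3, cardiac troponin I, had −0.11 and −0.02, and Myh6 had −0.06 and −0.09. Oxidative phosphorylation genes had −0.06 and −0.08 as a summed share, with 4 of 40 members above 0 in both sections, where 52.9% of the control and 45.3% of the transgenic genes tested lay above 0. The transgenic quadrants of that list ran from −0.41 to 0.19, and without the third quadrant its ratio was 0.04. Slc25a11, the mitochondrial oxoglutarate carrier, had −0.09 and −0.10. Mouse Top2b had 0.02 and 0.07, and whether its probes also read the human transgene is not given in the sources used here.

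The fetal and stress cardiomyocyte list was at 2166 CPM at the control edge against 1959 CPM in the interior (log2 ratio 0.14, interval 0.10 to 0.19) and at 41097 against 42564 CPM in the transgenic section (−0.05, interval −0.06 to −0.04), with 8 of 9 and 3 of 10 members above 0. Of all genes with at least 20 UMIs, 56.6% of the control and 48.8% of the transgenic genes lay above 0. Quadrants of the list ran from −0.06 to 0.47 in the control and from −0.13 to 0.26 in the transgenic section. It thus had no common direction in either section, and TMM factors shifted all control ratios by −0.10. Nppa, which encodes atrial natriuretic peptide, was at 332 CPM at the control edge against 264 CPM in the interior (log2 ratio 0.33) with quadrants of 0.65, −0.76, 1.40 and −1.64, so that it had no common direction. Within the control edge it was called lower at the outer than at the inner edge, at 249 against 451 CPM. The transgenic levels were 18799 CPM at the edge and 20817 CPM in the interior (−0.15), with 11127 CPM at the outer and 25149 CPM at the inner edge and quadrants of outer over inner from −2.09 to 0.02. Myh7, the slow myosin heavy chain, was called higher at the control edge at 49.6 against 31.0 CPM (0.68, interval 0.35 to 1.00), and had 0.22 in the transgenic section at 8718 against 7507 CPM. Over the control quadrants it ranged from 42.9 against 41.4 CPM to 73.6 against 32.0 CPM. Its control call ended with TMM (0.58) and DESeq2 factors (0.57). Ucp3, a mitochondrial uncoupling protein, had −0.02 in the control section and 24 UMIs in the transgenic section. Col9a2, a chain of type IX collagen, had 7 UMIs in the control section and 0.36 (interval 0.12 to 0.60) in the transgenic section. Myh8, the perinatal myosin heavy chain, had 0 UMIs in the control section and −0.09 (interval −0.49 to 0.30) in the transgenic section.

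Atrial light chains marked a small group of control edge spots. Myl7, the atrial regulatory light chain, had 96 UMIs at the control edge against 29 in the interior (log2 ratio 4.34, interval 3.73 to 5.00), with 92 at the outer edge and 93.8% of the edge UMIs in 10 spots. Myl4, the atrial essential light chain, had 76 against 82 UMIs (2.51, interval 2.04 to 2.98), with 70 at the outer edge and 90.8% in 10 spots. Stard10, a lipid transfer protein of the atrial list whose values were seen before it was chosen, was the 1 called member, at 55.1 against 20.6 CPM. Transgenic edge spots had 0.49 for Myl7 and −0.05 for Myl4.

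Few genes with at least 500 UMIs were called lower at the edge. Tagln, the smooth muscle protein transgelin, was at 21.3 CPM at the control edge against 45.6 CPM in the interior (log2 ratio −1.10, interval −1.58 to −0.65), with quadrants of −0.69, −2.81, −0.17 and −0.08, and at 67.0 against 64.5 CPM in the transgenic section (0.05, interval −0.17 to 0.27). Its transgenic edge was split, with 100 CPM at the outer and 39.7 CPM at the inner edge. Dcaf4, a substrate receptor of a ubiquitin ligase, was the other control gene, at 23.8 against 36.6 CPM (−0.62). Nmrk2, a muscle nicotinamide riboside kinase, was the transgenic gene, at 36.0 against 56.9 CPM (−0.66, interval −0.95 to −0.38, quadrants −0.76 to −0.36). Myh11, the smooth muscle myosin heavy chain, had −1.12 in the control section, where 1 quadrant was at 0.19, and was called lower in the transgenic section (−0.63, interval −1.07 to −0.21). The whole smooth muscle and pericyte list was at −0.04 and 0.02, with quadrants on both sides of 0 in both sections.

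Levels of the gene lists were then followed by distance from the edge. Epicardial UMIs in control spots nearer the outer edge were at 178 CPM in the edge row, 95.6 CPM at 1 step, 73.1 CPM at 2 steps and 36.4 CPM at 3 steps, and in transgenic spots at 306, 152, 140 and 99.7 CPM. Endocardial UMIs nearer the inner edge were at 244, 145, 105 and 62.2 CPM in the control section and at 431, 262, 168 and 124 CPM in the transgenic section. Both lists decreased over each of the first 3 steps. Erythroid UMIs nearer the inner edge dropped in 1 step in the control section, from 9233 to 2326 CPM. In the transgenic section they stayed at 42525 CPM at 1 step, against 53838 CPM in the edge row, and were at 10740 CPM at 2 steps. Resting fibroblast genes decreased inward from both edges, from 2050 to 1424 CPM at 3 steps from the control outer edge and from 2679 to 1903 CPM in the transgenic section. The last bin of 4 or more steps held 9 and 5 transgenic spots and is not read here.

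**Figure D3:**
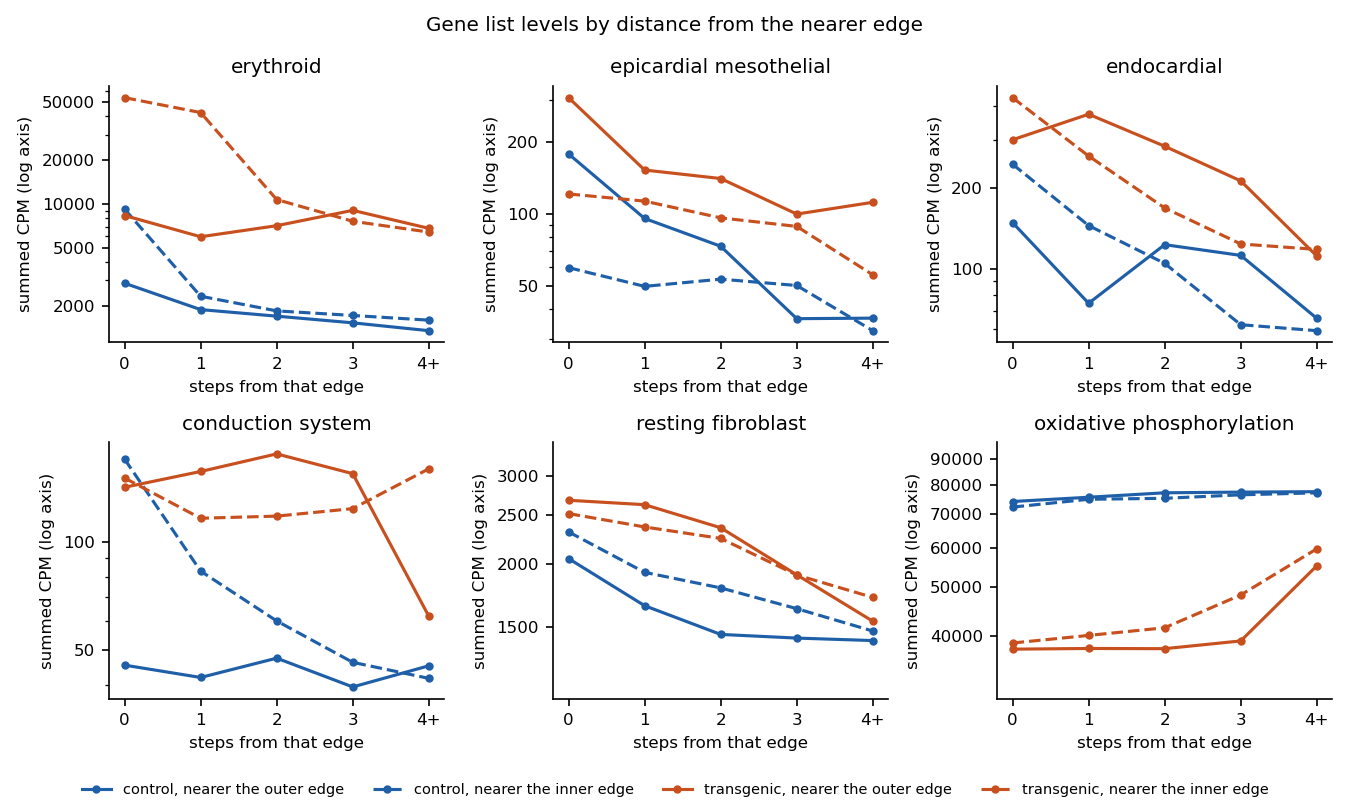
Summed CPM on a log axis of 6 gene lists against steps from the nearer edge, for spots nearer the outer edge (solid) and nearer the inner edge (dashed) in both sections. Epicardial levels decrease from the outer edge (178 to 36.4 CPM over 3 control steps) and endocardial levels from the inner edge (244 to 62.2 CPM), and oxidative phosphorylation changes little in the control section. The transgenic points at 4 or more steps hold 9 and 5 spots.

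The outer edge was then set against the inner edge directly, with at least 200 UMIs at the edge required. In the control section 1569 genes were tested, 10 were called higher (0.637%) and 9 lower (0.574%) at the outer edge. Of 3258 transgenic genes 40 were called higher (1.23%) and 14 lower (0.43%). The transgenic split depended on the scaling, since TMM factors shifted its ratios by −0.12 and gave 16 higher and 28 lower, DESeq2 factors shifted them by −0.17 and gave 13 and 40, TMM factors over the tested genes shifted them by −0.09 and gave 22 and 24, and totals without the erythroid list gave 25 and 19.

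Genes at the outer edge of the transgenic section included those of antigen presentation. Cd74, the invariant chain of MHC class II, was at 809 CPM at the outer and 388 CPM at the inner edge (log2 ratio 1.06, interval 0.93 to 1.19, quadrants 0.73 to 1.75). The antigen presentation list as a whole was at 3002 against 2164 CPM (0.47, interval 0.41 to 0.53), and at 1669 against 1600 CPM in the control section (0.06, interval −0.04 to 0.16). H2-Eb1, H2-Aa and H2-Ab1, chains of MHC class II named after their values were seen, were called too, with 1.11, 0.93 and 0.82, and the call of H2-Aa ended with TMM and DESeq2 factors. The macrophage list moved the same way, at 890 CPM at the transgenic outer and 715 CPM at the inner edge (0.31, interval 0.21 to 0.42). In the control section it was at 0.10 (interval −0.09 to 0.29), and its part in the antigen presentation values was not tested. Over all genes with at least 20 UMIs, the median outer over inner ratio was 0.12 in the transgenic and 0.02 in the control section. Cldn5, the tight junction protein of endothelium, was at 196 against 97.9 CPM (1.00) and Thbs1, thrombospondin 1, at 191 against 105 CPM (0.86). Hspb8, a small heat shock protein, was called in both sections, at 614 against 378 CPM in the control section and 610 against 391 CPM in the transgenic section. Its transgenic call ended with TMM factors, over all or over the tested genes, with DESeq2 factors and with totals without the erythroid list. The control call of Hspb8 did not end with these.

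Genes of blood and of the endocardium were among those called at the inner edge. Of the 9 control calls 3 were globin genes, Hba-a2, Hbb-bs and Hbb-bt, and the 14 transgenic calls held Hba-a2 and the endocardial Plvap and Npr3. Hba-a2 was called lower at the outer edge in both sections, by −1.73 in the control and −2.82 in the transgenic section. Igf2, insulin-like growth factor 2, was at 66.7 CPM at the outer and 237 CPM at the inner edge of the transgenic section (log2 ratio −1.83) and had −1.64 in the control section, where the quadrants ran from −3.11 to 0.71. Sdc4, the heparan sulfate proteoglycan syndecan 4, was called lower at the control outer edge, at 146 against 372 CPM, and had −0.21 in the transgenic section. Lrtm1, a leucine-rich repeat transmembrane protein, had the largest outer excess of the control genes with at least 500 edge UMIs, at 409 CPM against 52.2 CPM (2.97, interval 2.52 to 3.46). Its edge over interior ratio was 0.07, with interior spots at 250 CPM, and 1 of the quadrants had −1.52. Hopx, a homeodomain protein of cardiomyocytes named after its values were seen, was called lower at the transgenic outer edge, with −0.87, and had −0.24 in the control section.

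**Figure D4:**
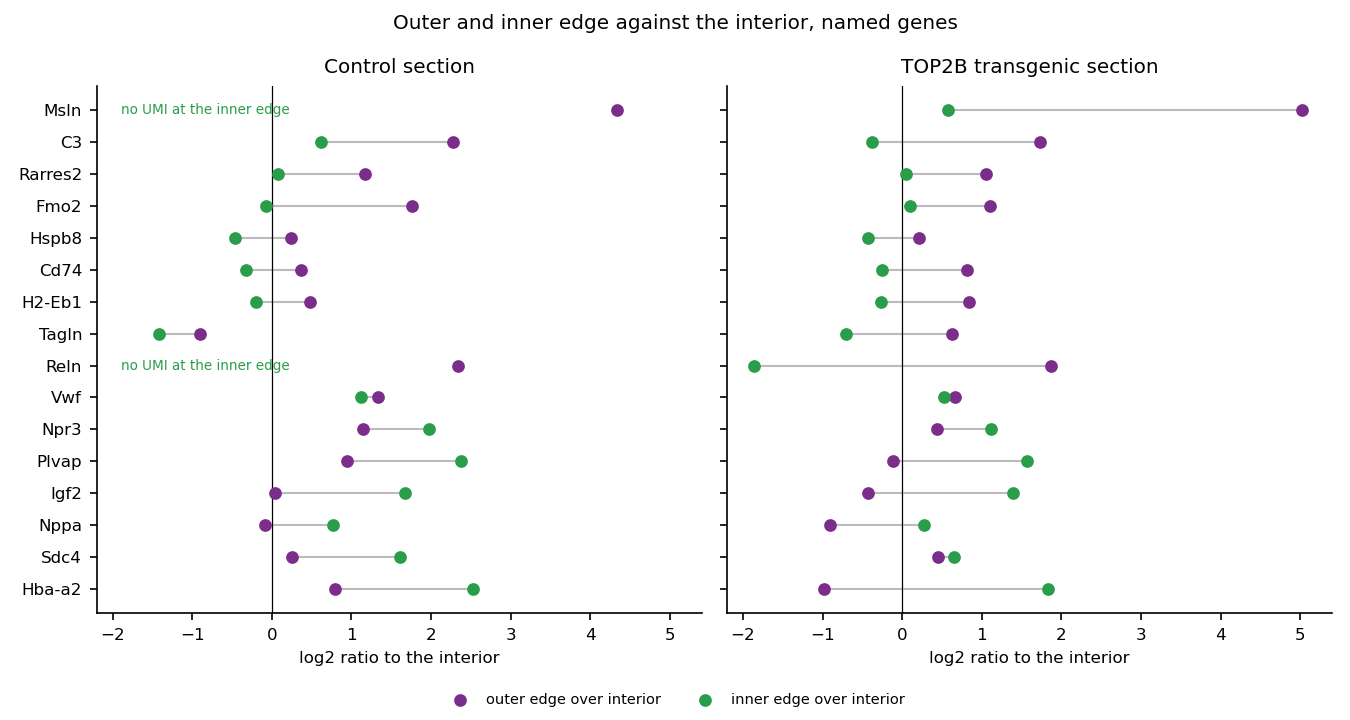
log2 ratio to the interior of the outer edge (purple) and of the inner edge (green) for 16 genes in both sections, with a grey line joining them. Msln, C3, Rarres2 and Fmo2 have their higher value at the outer edge in both sections, and Plvap, Npr3, Igf2, Nppa and Hba-a2 at the inner edge.

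The edge patterns of the sections were compared over the 6781 genes tested in both. Of these, 61 were called higher at the control edge, 16 at the transgenic edge and 11 at both, which is 18.0% of the control and 68.8% of the transgenic calls among these genes. All calls higher at the edge numbered 67 and 37. The rest, most of the transgenic calls, had under 200 UMIs in the other section and could not be shared. The shared genes were the erythroid Hba-a2, Hbb-bs, Hbb-bt, Alas2 and Bpgm, the endocardial Plvap, Npr3 and Vwf, and C3, Rarres2 and Fmo2. With TMM or DESeq2 factors 9 genes were called in both, without Rarres2 and Vwf. Without the 10% of spots richest in erythroid UMIs the number was 5, of which C3, Fmo2 and Npr3 were among the 11, and with edge spots of at least the 10th percentile of interior UMIs those 3 alone were called in both. Control Plvap could not be tested in either of these, for want of 200 UMIs. No gene was called lower in both sections, among 15 control (0.22% of the 6781) and 5 transgenic genes (0.07%). None was called in opposite directions. At such small shares an empty overlap is not read as a difference between the sections. Of the 61 control genes called higher 45 lay above 0 in the transgenic section (73.8%), against 44.5% of all genes tested in both. Of the 15 called lower 8 lay below 0 there (53.3%), near the 55.5% of all genes tested in both. Across genes, which are not independent replicates, Pearson's r between the sections was 0.21 over the 6781 genes and 0.41 over the 1836 genes with at least 1000 UMIs in each. Spearman's rank correlation was lower, at 0.14 and 0.20.

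The genes whose ratio differed most between the sections were taken from 3714 genes with at least 500 UMIs in each. The most negative differences, transgenic minus control, included Igfbp5 (difference −1.23, interval −1.41 to −1.05), Igfbp3 (−1.17), C3 (−0.86), Hpcal1 (−0.79), Hbb-bs (−0.74), Rnase4 (−0.66), Rassf1 (−0.64), Mgp (−0.64) and Hba-a2 (−0.63). The most positive differences included Tagln (1.15), Myl9, a smooth muscle myosin light chain (0.65), and Tfpi, an inhibitor of coagulation (0.62). C3 and the globin genes were called higher at the edge in both sections, so their difference for the whole edge is one of size. At the outer edge alone the erythroid list also differed in direction. It was above the interior in the control section (2857 against 1677 CPM) and below it in the transgenic section (8340 against 15711 CPM). With 1 section per genotype these differences have no replicate check, and section shape, genotype and the depth of the edge spots cannot be told apart.

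**Figure D5:**
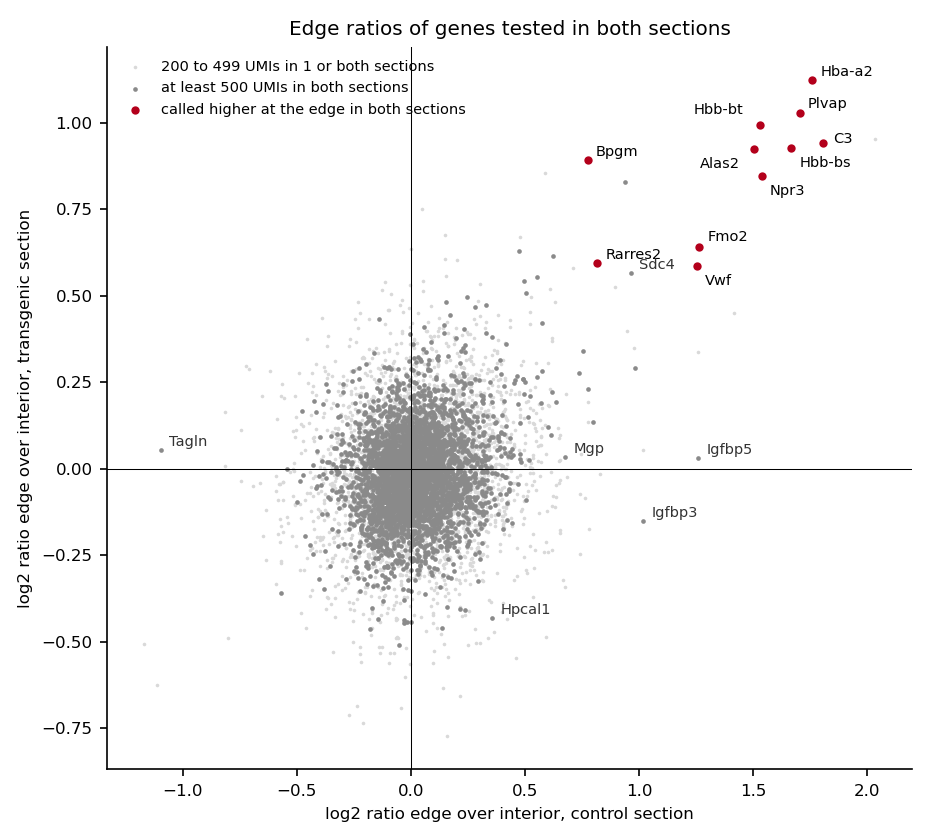
log2 ratio edge over interior of the genes tested in both sections, control on the horizontal and transgenic on the vertical axis, with genes of at least 500 UMIs in both in dark grey and the 11 genes called higher in both in red. The 11 lie in the upper right, while Igfbp5 and Igfbp3 lie above 1 on the control axis and near 0 on the transgenic axis (0.03 and −0.15).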

How the data were processed

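Spatial gene expression was measured in 1 heart section of each genotype, 2 sections in all. The authors deposited raw counts, UMIs per gene and spot of each section in a filtered matrix, with the array position of every spot; the submitters' processing notes name bcl2fastq and Space Ranger and the mouse build GRCm39 (mm39), and the file headers give Space Ranger version 2.0.0. The counts are neither scaled nor corrected, and reads from probes report only genes in the probe set. Scale factors and precomputed spatial statistics (Moran's I) were not used.

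Counts were summed over edge and interior spots and divided by the summed total (CPM). Tests across spots were not made. Ratios were given exact conditional binomial 95% intervals, and a zero was set to 3 counts. Sections were split into 4 quadrants at the mean position of their spots, each with at least 5 spots of each kind. Python 3.11.15, numpy 2.4.6, scipy 1.17.1, pandas 2.3.3 and matplotlib 3.10.9 were used, with edgeR 4.0.16 and DESeq2 1.42.0 in R 4.3.3 only for alternative scaling factors of the summed counts. The statistics were checked on simulated independent counts, with the same gene shares in every quadrant and no clumping of UMIs in few spots. That check does not cover the clumping seen in these data. Depth was 1 to 47367 UMIs per control spot and 0 to 28695 per transgenic spot.

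Genes were named by rule: the 10 highest and 10 lowest called ratios among genes with at least 500 UMIs, the 10 largest differences between sections each way, the 8 highest and 8 lowest outer over inner ratios with at least 500 edge UMIs, all members of the epicardial, endocardial and erythroid lists, the extremes of each list described, the genes the study names for these sections, and Top2b. Exceptions are marked in the text, and a few genes that the rule names are not reported here. The edge rule, the 39 gene lists (492 entries) and the thresholds were chosen with earlier results of these data known. No ribosomal protein gene of the lists was among the genes of the files. Alternatives changed the UMI and fold thresholds, the scaling, the spots kept, the definition of edge and interior, and the quadrants.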

Additional observations from a re-analysis of the deposited data

Results flagged for a closer look

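The search covered only genes picked for their ratios, for a large difference between sections or because the study names them. It did not cover all 6781 genes tested in both sections. Of those 6781, quadrant ranges of the sections did not overlap for 70 genes higher and 142 lower in the transgenic section. Among the genes searched, 2 had every quadrant of 1 section on one side of 0 and every quadrant of the other section on the opposite side. The share of all 6781 genes with this layout was not counted, and picking genes for a large difference favours it. Hpcal1, a calcium-binding protein of the visinin-like family, had control quadrants of 0.33, 0.74, 0.46 and 0.03 and transgenic quadrants of −0.57, −0.62, −0.25 and −0.53, a difference of −0.79 (transgenic minus control, log2 scale). Ubtf, a transcription factor for ribosomal RNA genes, had control quadrants of −0.80, −0.10, −0.20 and −0.05 and transgenic quadrants of 0.40, 0.19, 0.27 and 0.03, a difference of 0.54. Neither gene was called in either section, quadrants of 1 section are not replicates, and the difference between sections was not tested.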

How the results depend on the processing

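No paired analysis was possible because each genotype has 1 section. Over 17 settings 7 of 8 called lists and 33 of 42 called values of named genes kept their sign. Counts below are genes called higher in the control section, higher in the transgenic section and higher in both, then lower in the same order, and stand where they moved by over 1.5 times from 67, 37, 11, 22, 17 and 0. A minimum of 20 UMIs gave 403, 232, 38, 201, 180 and 9, one of 1000 UMIs 12, 12, 4, 0 and 0, a 2-fold threshold 16, 10, 2, 1 and 1, and a threshold below 1.5-fold, the lower alternative fold, 302, 154, 29, 152, 127 and 3. TMM factors gave 36 control genes higher and 64 lower, and DESeq2 factors 35 and 68, with all higher calls of either among the 67. Edge spots with at least 2 neighbours off tissue gave 107 higher in the control section, and 84, 37 and 2 lower in the control, transgenic and both. The fold alone gave 29 lower in the transgenic section and 1 in both. The mean of spot CPM gave 55 control and 34 transgenic genes lower. Without the 10% of spots richest in erythroid UMIs 5 genes were higher in both and 35 lower in the control section. With edge spots of at least the 10th percentile of interior UMIs 3 were higher in both and 56 lower in the control section, and 3 and 52 when interior spots met it as well, an alternative chosen after seeing the data. Leaving out the first quadrant gave 7 higher in both, the third 7 higher in both with 50 control, 54 transgenic and 1 shared gene lower, and the fourth 44 control genes lower. A count that stood could still hold other genes. Of the 67 control higher calls 22 remained with edge spots of at least the 10th percentile of interior UMIs. Without the spots richest in erythroid UMIs 28 remained, and without 1 quadrant 35 to 39. In the same order 17, 22 and 21 to 27 of the 37 transgenic higher calls remained. Without 1 quadrant 6 to 11 of the 22 control and 7 to 10 of the 17 transgenic lower calls remained. Outer over inner calls of the transgenic section, 40 higher and 14 lower, became 16 and 28 with TMM, 13 and 40 with DESeq2, 22 and 24 with TMM over tested genes, and 25 higher with totals without erythroid genes, all chosen after seeing the data.

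With transgenic edge spots of at least the 10th percentile of interior UMIs the erythroid list was at −0.77, Alas2 −0.74, Bpgm −0.63, Car2 −0.25, Hba-a2 −0.79, Hbb-bs −0.71, Hbb-bt −0.64, Slc4a1 −0.42 and Tent5c −0.49. With the same minimum on interior spots Bpgm was at −0.040. Control Bpgm was at −0.034 without the spots richest in erythroid UMIs. The cause was not tested. At the control edge 3 UMIs, the limit a count of 0 allows, are 1.49 CPM for any gene.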

Other observations

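Lymphatic genes lay at the outer edge of the transgenic section. The lymphatic endothelial list summed to 277 CPM at its outer edge, 122 CPM at its inner edge and 140 CPM in its interior, and all 6 members with at least 20 UMIs lay above 0 for edge over interior. Mmrn1, the lymphatic protein multimerin 1, had 14 of its 15 edge UMIs at the outer edge. The control section had 207, 179 and 185 CPM for the same list, and its edge over interior ratio of 0.08 turned to −0.02 with TMM factors. Prox1 alone was at 143 to 170 CPM in the control interior quadrants and made up most of that sum. Of the 5 control members with at least 20 UMIs, 4 lay above 0, with a median outer edge over interior ratio of 0.79. Reln had the highest control edge ratio, 1.58. With a minimum of 20 UMIs, Reln and Pdpn, the latter named after its values were seen, were called higher at the edge in both sections. Under that minimum 403 of 12228 control and 232 of 12424 transgenic genes were called higher, many on few UMIs. Genes of Schwann cells and nerves summed to 29.8 CPM at the control edge against 18.0 CPM in the interior (log2 ratio 0.73, interval 0.29 to 1.15) and to 26.9 against 20.2 CPM in the transgenic section (0.41, interval 0.05 to 0.77), on few UMIs.

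Some transgenic calls under 500 UMIs, named after their values were seen, had ratios in the same direction on thinner control counts. Nrg1, the growth factor neuregulin 1, was at 48.3 CPM at the transgenic edge against 17.9 CPM in the interior (log2 ratio 1.43, interval 1.12 to 1.74) and held 73.8 CPM at the inner and 17.6 CPM at the outer edge. Its control ratio was 2.03 (interval 1.22 to 2.82) on 60 UMIs. Smoc1, a calcium-binding matrix protein, had the same inner layout, with 68.3 CPM at the inner and 18.8 CPM at the outer transgenic edge. Gpc3, the proteoglycan glypican 3, lay at the outer edge instead, with 60.6 against 17.6 CPM, and so did Ptn, the growth factor pleiotrophin, with 53.4 against 24.1 CPM. Their control ratios edge over interior were 1.64 for Gpc3 and 1.97 for Ptn, on 157 and 113 UMIs. Stmn2, a neuronal stathmin, had the lowest ratio of the transgenic calls, at 10.7 against 23.4 CPM (−1.13, interval −1.66 to −0.63), and −1.02 in the control section on 121 UMIs.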
